A study of Mus musculus with 8 samples.

Results

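The genes described here are the 5 subunits of the transcription factor NF-κB (Nfkb1, Nfkb2, Rel, Rela and Relb) and 5 genes whose products inhibit it (Nfkbia, Nfkbib, Nfkbie, Nfkbiz and Tnfaip3). They were picked by gene symbol, and all 10 were found among the 22065 named genes of the count table. All 10 also passed the filter on low counts, which left 16444 genes for testing. RNA-seq was done on hematopoietic stem cells (HSCs) sorted from mouse bone marrow as CD150+ CD48- EPCR+ Lineage- cells, at 100 cells per library. The methods describe long-term HSCs as CD117+ too, which the labels of these libraries do not list. The mice were C57BL/6 animals aged 8 to 10 weeks. The 4 Mitol Δ/Δ libraries came from Mitol flox/flox mice carrying MX1-cre, and the 4 control libraries from Mitol flox/flox mice without the Cre. Both groups had been injected with Poly:IC 1 week before, so neither is free of that stimulus. Poly:IC is a double-stranded RNA mimic that itself acts through Toll-like receptor 3 and interferon, and the MX1 promoter drives Cre in interferon-responsive cells in general, not in HSCs alone.

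NF-κB is a family of dimers built from RelA, RelB, c-Rel, p50 (made from the product of Nfkb1) and p52 (made from that of Nfkb2). In resting cells IκB proteins hold the dimers in the cytoplasm. Kinases of the IKK complex mark the IκB proteins for degradation, the dimers enter the nucleus, and among the genes they switch on are those for IκBα (Nfkbia) and A20 (Tnfaip3), which close the loop. The pathway is regulated mainly through degradation, processing and localization of proteins, so mRNA levels report on the amount of its parts and on its feedback genes, not directly on its activity. In HSCs the pathway is known for its part in survival and in the response to inflammation.

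The promoters were searched for κB motifs, the sequences that NF-κB dimers bind. RefSeq promoter sequences (250 bases before to 50 after a start site, from a table made on GRCm38.p6) were at hand for 7 of the 10 genes, as 10 promoters. Nfkb1, Relb and Nfkbiz had no entry. Each promoter was placed on GRCm39 by an exact match. The κB decamer, searched by its standard consensus on both strands, was in 7 of these 10 promoters and in 5 of the 7 genes, Nfkb2, Rel, Nfkbia, Nfkbie and Tnfaip3. It was in 4.51% of all 32851 promoters in the table, and in 5.14% of the genes there. Nfkb2 had more than 1 of the promoters with a decamer, some of which overlap and share it, and 1 Tnfaip3 promoter held none. The looser motif GGGNNNNNCC, which every κB decamer also fits, was in 9 of the 10 promoters against 50.8% of all promoters. No κB decamer was found in the promoters of Rela and Nfkbib. A match of letters is a description and not a site shown to be bound. The 250 bases before the start are printed below for 4 members, Nfkbia and Tnfaip3 as the feedback genes, Rel as the member with the lowest p and Nfkb2 as the one with the most decamers, 5′ to 3′ on the gene's strand, with decamers of either strand in capitals. In Rel decamers on both strands overlap and form 1 run. In Nfkb2 they do so from -39 to -29 (bases from the start), and a separate decamer lies from -11 to -2.
Nfkbia, chr12:55539433-55539682, minus strand: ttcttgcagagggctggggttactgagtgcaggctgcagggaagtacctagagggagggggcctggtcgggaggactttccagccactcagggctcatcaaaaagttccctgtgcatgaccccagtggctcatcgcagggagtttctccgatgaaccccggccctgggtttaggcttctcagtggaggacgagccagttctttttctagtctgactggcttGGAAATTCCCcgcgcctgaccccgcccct
Nfkb2, chr19:46292926-46293175, plus strand: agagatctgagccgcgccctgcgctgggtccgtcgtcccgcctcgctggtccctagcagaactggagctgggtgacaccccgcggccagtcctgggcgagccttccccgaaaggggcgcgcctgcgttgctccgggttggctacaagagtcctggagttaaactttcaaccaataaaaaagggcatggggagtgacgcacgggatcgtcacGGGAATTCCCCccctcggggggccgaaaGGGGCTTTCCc
Rel, chr11:23720970-23721219, minus strand: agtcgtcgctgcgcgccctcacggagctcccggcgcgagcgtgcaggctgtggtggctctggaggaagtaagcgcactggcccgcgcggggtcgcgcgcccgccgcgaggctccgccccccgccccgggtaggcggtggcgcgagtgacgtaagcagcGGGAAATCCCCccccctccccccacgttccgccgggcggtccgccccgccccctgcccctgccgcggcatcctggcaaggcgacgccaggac
Tnfaip3, chr10:18891159-18891408, minus strand: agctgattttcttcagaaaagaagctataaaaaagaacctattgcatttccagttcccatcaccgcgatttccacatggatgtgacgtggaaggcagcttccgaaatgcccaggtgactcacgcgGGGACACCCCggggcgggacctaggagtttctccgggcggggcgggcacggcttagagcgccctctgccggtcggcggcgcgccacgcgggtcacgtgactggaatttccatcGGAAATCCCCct
Among the pathway and immediate early genes past the threshold, described further on, 16 had a promoter entry. Of these, 6 held the decamer, beside 5.14% of all genes with an entry. For 2 of the 6 that changed in opposite directions, the promoter of Ebi3 and 30 bases around the decamer of Bcl3, which lies after the start, are shown likewise.
Ebi3, chr17:56259373-56259622, plus strand: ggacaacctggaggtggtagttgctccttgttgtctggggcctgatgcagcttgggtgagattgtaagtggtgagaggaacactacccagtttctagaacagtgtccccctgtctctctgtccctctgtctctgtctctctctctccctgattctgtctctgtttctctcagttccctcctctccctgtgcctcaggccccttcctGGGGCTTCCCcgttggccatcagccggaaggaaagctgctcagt
Bcl3, chr7:19556659-19556688, minus strand: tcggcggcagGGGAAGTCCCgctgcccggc

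None of the 10 genes passed the test for a difference between Mitol Δ/Δ and control HSCs. At an adjusted p-value under 0.05 (edgeR's quasi-likelihood test, Benjamini-Hochberg adjustment over all 16444 genes) 0 of 10 were called higher and 0 of 10 lower, where 4.68% and 3.75% of all genes were called in these directions, 8.43% in all. At an unadjusted p under 0.05 the count was 1 of 10 (Rel), against 26.4% of all genes. DESeq2 also called 0 of 10 in either direction, where it called 8.19% of all genes higher and 5.85% lower, and limma-voom called 0 of 10, against 8.35% of all genes. In no member did the 4 libraries of one group all lie above or below the 4 of the other, which was so for 15.4% of all genes. The fitted differences ran from -0.34 to 0.40 on the log2 scale, with 8 of 10 above 0 against 47.7% of all genes. Of these 8, Nfkb2, Nfkbie and Nfkbiz changed sign under some alternatives. The medians were 0.09 in the subunits and 0.13 in the inhibitors, beside -0.02 over all genes tested. The labels do not say that the libraries of a group came from separate mice, so the p-values measure the spread between libraries, which may be technical in part. A p that misses the threshold does not show equal levels, and the 95% interval given with each gene states how large a difference these libraries leave possible. In libraries of sorted cells, fewer cells of a kind and less RNA per cell cannot be told apart.

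**Figure D1:**
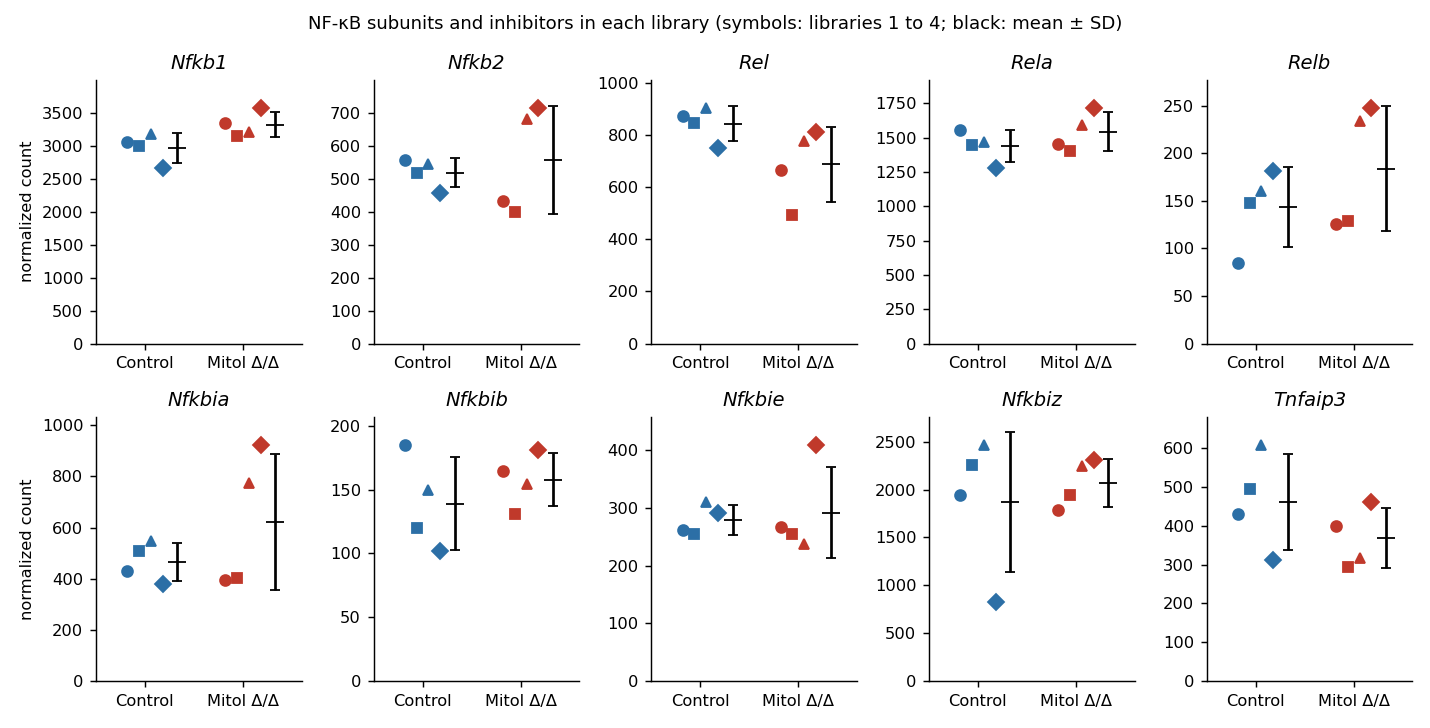
Normalized counts (vertical axes, starting at 0) of the 10 genes in each control (blue) and Mitol Δ/Δ (red) library, with circles, squares, triangles and diamonds for libraries 1 to 4 and black bars for the mean ± SD of n = 4. The groups overlap in every panel, and Mitol Δ/Δ libraries 3 and 4 lie above all control libraries for Nfkb2, Rela, Relb and Nfkbia.

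Among the subunits, Nfkb1 encodes p105, the precursor of p50, and lies on chromosome 3 (GRCm39, 135290264 to 135397742, minus strand). Its normalized counts (counts divided by DESeq2 size factors) were 3348, 3144, 3209 and 3569 in Mitol Δ/Δ libraries 1 to 4 and 3049, 2986, 3175 and 2653 in control libraries 1 to 4. 3 of the 4 Mitol Δ/Δ libraries lay above every control library, and the group means were 3317 ± 188 and 2966 ± 223 (SD, n = 4). The log2 fold change was 0.14 (SE 0.08, edgeR adjusted p = 0.292), and its 95% interval as a fold ran from 0.976 to 1.25. The exact permutation test, 2-sided over 70 arrangements with a smallest possible p of 0.0286, gave p = 0.0571.

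Rela encodes RelA (p65), the main transactivating subunit, and lies on chromosome 19 (5687493 to 5698161, plus strand). It had 1455, 1403, 1596 and 1716 normalized counts with the deletion (Mitol Δ/Δ libraries 1 to 4) and 1557, 1445, 1468 and 1279 in control libraries 1 to 4. Its means of 1542 ± 142 and 1437 ± 116 differed by less than the spread within the groups (log2 fold change 0.08, SE 0.10, edgeR adjusted p = 0.613). The 95% interval from 0.919-fold to 1.22-fold was, with that of Nfkb1, among the narrowest of the 10 genes.

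Rel encodes c-Rel and lies on chromosome 11 (23686847 to 23721264, minus strand). It had 664, 495, 778 and 813 normalized counts with the deletion (Mitol Δ/Δ libraries 1 to 4) and 874, 847, 904 and 752 in control libraries 1 to 4. Mitol Δ/Δ libraries 1 and 2 lay below every control library, while libraries 3 and 4 lay within the control range. The means were 687 ± 143 and 844 ± 66.1, a log2 fold change of -0.31 (SE 0.14, edgeR p = 0.0498 unadjusted and 0.189 adjusted, exact permutation p = 0.0857). Without Mitol Δ/Δ library 2 the log2 fold change was -0.18, and without library 4 it was -0.38 (edgeR adjusted p = 0.394 and 0.0913).

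Nfkb2 encodes p100, the precursor of p52 and the core of the non-canonical branch, and lies on chromosome 19 (46292759 to 46303812, plus strand). It had 433, 399, 681 and 714 normalized counts with the deletion (Mitol Δ/Δ libraries 1 to 4) and 555, 517, 544 and 456 in control libraries 1 to 4. The Mitol Δ/Δ libraries split, with 2 below and 2 above every control library, while the control libraries lay close together. Their SD was 29.4% of the mean against 8.53% in the controls. The means of 557 ± 164 and 518 ± 44.2 did not differ beyond this spread (log2 fold change 0.09, SE 0.18, edgeR adjusted p = 0.802). Exons of Nfkb2 share 24.5% of their bases with Psd on the other strand, and the library kit does not mark strand, so reads there cannot be told apart. Psd had a log2 fold change of 0.05 (edgeR adjusted p = 0.951).

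Relb encodes RelB, the partner of p52, and lies on chromosome 7 (19339017 to 19363425, minus strand). It was the lowest of the subunits in normalized counts per exon length. It had 126, 129, 233 and 248 normalized counts with the deletion (Mitol Δ/Δ libraries 1 to 4) and 84.4, 148, 160 and 181 in control libraries 1 to 4. Mitol Δ/Δ libraries 3 and 4 again lay above all controls, and libraries 1 and 2 within their range. The log2 fold change was 0.33 (SE 0.28, edgeR adjusted p = 0.484), with a 95% interval from 0.826-fold to 1.92-fold. Counting error was largest here. The smallest raw count of any member in any library was 64, for Relb in control library 1, with an exact Poisson interval of 49.3 to 81.7, which covers counting error only.

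Among the inhibitors, Nfkbia encodes IκBα, the main cytoplasmic inhibitor and an early feedback gene, and lies on chromosome 12 (55535332 to 55539432, minus strand). It had 393, 401, 773 and 922 normalized counts with the deletion (Mitol Δ/Δ libraries 1 to 4) and 431, 508, 545 and 377 in control libraries 1 to 4. The 2 highest libraries were Mitol Δ/Δ 3 and 4, and libraries 1 and 2 lay within the control range. Nfkbia had the largest fitted difference of the 10 genes and the widest spread in Mitol Δ/Δ HSCs, with an SD of 42.9% of the mean. The means of 622 ± 267 and 465 ± 75.6 gave a log2 fold change of 0.40 (SE 0.26, edgeR adjusted p = 0.344), which was 0.17 without Mitol Δ/Δ library 4 (edgeR adjusted p = 0.666). The 95% interval reached from 0.899-fold to 1.94-fold.

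Tnfaip3 encodes A20, a ubiquitin-editing enzyme that restrains signaling above the IKK complex, and lies on chromosome 10 (18874201 to 18891405, minus strand). It had 400, 293, 318 and 461 normalized counts with the deletion (Mitol Δ/Δ libraries 1 to 4) and 431, 496, 608 and 311 in control libraries 1 to 4. It was, beside Rel, the other member with a fitted difference below 0, at -0.34 on the log2 scale (SE 0.20, edgeR adjusted p = 0.295). The groups overlapped in part. Control libraries 2 and 3 lay above every Mitol Δ/Δ library, and Mitol Δ/Δ library 2 lay below every control library. Its promoter, like that of Nfkbia, holds κB decamers, and the fitted differences of these 2 feedback genes had opposite signs, with intervals that both held 0.

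Nfkbiz encodes IκBζ, a nuclear protein of the family that can also act as a co-activator, and lies on chromosome 16 (55631738 to 55659262, minus strand). It had 1785, 1939, 2243 and 2311 normalized counts with the deletion (Mitol Δ/Δ libraries 1 to 4) and 1944, 2260, 2463 and 821 in control libraries 1 to 4. Control library 4 stood far below the other 7 libraries. The log2 fold change was 0.13 (SE 0.25, edgeR adjusted p = 0.787) and turned to -0.12 without that library (edgeR adjusted p = 0.620).

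Nfkbie and Nfkbib encode IκBε and IκBβ and lie on chromosome 17 (45866585 to 45874661, plus strand) and chromosome 7 (28457486 to 28466937, minus strand). Nfkbie had 266, 255, 237 and 408 normalized counts with the deletion (Mitol Δ/Δ libraries 1 to 4) and 261, 255, 310 and 291 in control libraries 1 to 4. Mitol Δ/Δ library 4 was the highest of the 8, and the remaining 7 lay between 237 and 310. Its log2 fold change of 0.04 (SE 0.17, edgeR adjusted p = 0.911) was -0.15 without that library (edgeR adjusted p = 0.504). Nfkbib had 164, 131, 155 and 181 normalized counts with the deletion (Mitol Δ/Δ libraries 1 to 4) and 185, 120, 150 and 101 in control libraries 1 to 4, and all of the Mitol Δ/Δ values lay within the control range. Its log2 fold change was 0.17 (SE 0.20, edgeR adjusted p = 0.634), and 13.3% of its exon bases overlap Ccer2 on the other strand.

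**Figure D2:**
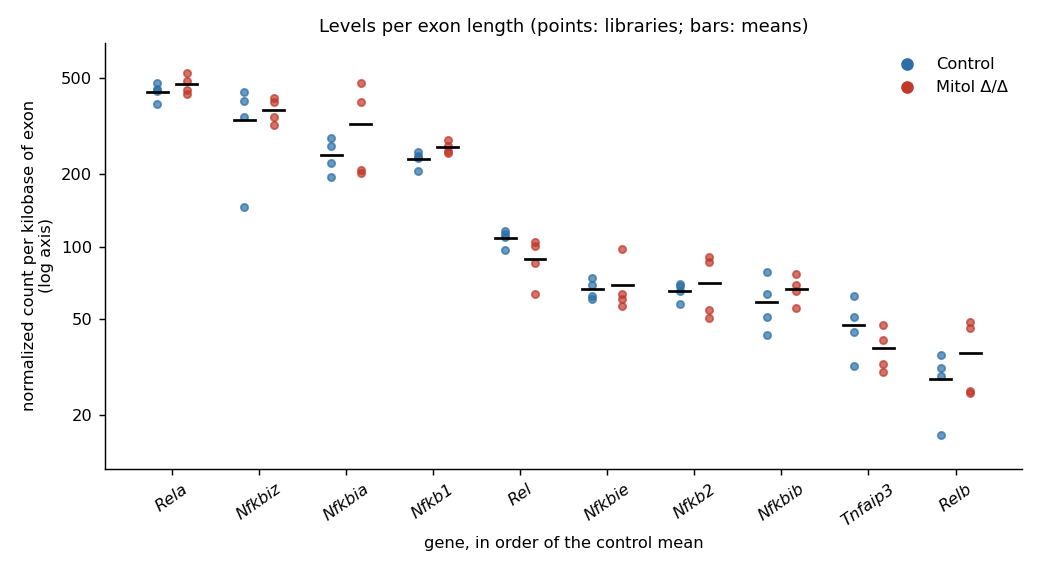
Normalized counts per kilobase of exon (log axis) for the 10 genes in the order of the control mean, with a point per control (blue) and Mitol Δ/Δ (red) library and a bar at each mean. On this scale, which depends on the exon length used, 4 genes form an upper block, from Rela at 439 to Nfkb1 at 231 in control HSCs. A lower block runs from Nfkbie at 66.7 to Relb at 28.2, with Rel at 109 between the blocks.

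To compare levels between genes, normalized counts were divided by the length of all annotated exons of a gene (GENCODE vM39), which is at least as long as any 1 transcript. The order depends on this divisor, which was 12848 bases for Nfkb1 and 3274 for Rela. Before division Nfkb1 was above Rela in controls, at means of 2966 and 1437. In control HSCs Rela was the highest at 439 ± 35.5 normalized counts per kilobase, then Nfkbiz at 333 ± 131, Nfkbia at 240.2 ± 39.0 and Nfkb1 at 231 ± 17.4. Neighbours within these 4 overlapped in their control libraries. Rel followed at 109 ± 8.51 and was separated from Nfkb1 above it and from Nfkbie below it, with no overlap of control libraries. The rest were Nfkbie at 66.7, Nfkb2 at 65.6, Nfkbib at 58.9, Tnfaip3 at 47.5 and Relb at 28.2, and each overlapped its neighbours. The canonical subunits Rela and Nfkb1 were above the non-canonical Nfkb2 and Relb on this scale in every control library, and IκBα was the highest of the 3 cytoplasmic IκB genes. In Mitol Δ/Δ HSCs the upper 4 were the same genes, at 471 ± 43.2 for Rela, 369 ± 44.4 for Nfkbiz, 321 ± 138 for Nfkbia and 258 ± 14.6 for Nfkb1.

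In 4 of the 10 genes, Nfkb2, Rela, Relb and Nfkbia, the 2 highest of the 8 libraries were Mitol Δ/Δ 3 and 4, a pattern found in 5.44% of all genes tested. Mitol Δ/Δ library 4 was the highest library for 6 of the 10 genes (12.6% of all genes) and control library 4 the lowest for 5 of the 10 (21.2% of all genes). These patterns were picked after the values were seen, so the shares beside them are a description and no test. The ratio of Nfkb2 to Nfkb1 counts, which does not depend on library size, was 0.129, 0.127, 0.212 and 0.200 in Mitol Δ/Δ libraries 1 to 4 and lay between 0.171 and 0.182 in the controls. The ratio of Nfkbia to Rela counts was 0.270, 0.286, 0.484 and 0.537 in Mitol Δ/Δ libraries 1 to 4 and between 0.277 and 0.372 in the controls.

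Other transcripts varied along with these libraries. The summed normalized count of 23 immediate early genes, which rise quickly on stimulation or handling of cells, was 27670, 32200, 40640 and 47210 in Mitol Δ/Δ libraries 1 to 4, and 51200, 45380, 51360 and 27500 in control libraries 1 to 4. Control library 4 was the lowest of the 8 on that sum, close to Mitol Δ/Δ library 1, and it was also the lowest for Nfkbiz, Nfkb1, Rela, Nfkbia and Nfkbib. The summed count of 10 red-cell genes was 1065, 1121, 5016 and 2393 in Mitol Δ/Δ libraries 1 to 4 and 909, 827, 752 and 468 in the controls, so it was highest in the same 2 libraries as Nfkbia. The part of either in these values was not tested. Without Mitol Δ/Δ library 3 and control library 4, a choice made after the values were seen, 0 of 10 members were called, where only 0.379% of all genes were, so the count says little about them. In that fit Nfkbia had a log2 fold change of 0.20 and Nfkbiz of -0.15 (edgeR adjusted p = 0.766 and 0.568).

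**Figure D3:**
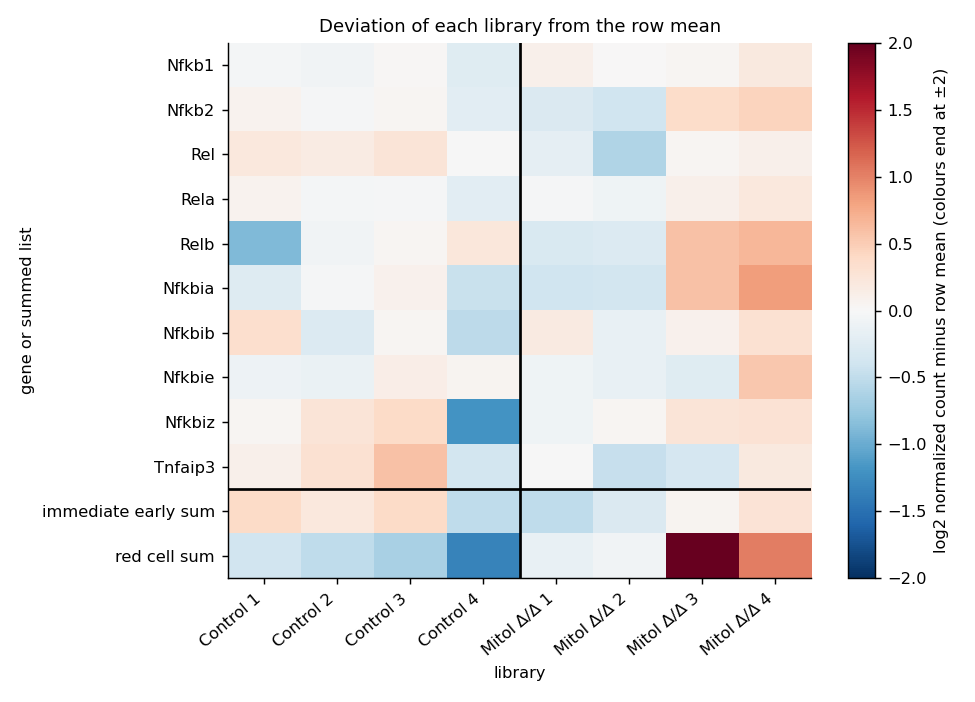
Log2 normalized count minus the row mean (colour, in log2 units) for the 10 genes and for the summed immediate early and red-cell genes in the 8 libraries (columns). Mitol Δ/Δ libraries 3 and 4 are red for Nfkb2, Relb and Nfkbia, and control library 4 is blue for Nfkbiz and the immediate early sum.

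The 10 genes are set among 116 other genes of the pathway that passed the filter, in 4 lists. Of these, 5 rose and 10 fell (edgeR, adjusted p under 0.05), 12.9% of those tested beside 8.43% of all genes, and their median log2 fold change was -0.01 beside -0.02. The number of such genes, like that of all genes called, depended on single libraries. It was 9, 5, 4 and 22 without Mitol Δ/Δ libraries 1, 2, 3 and 4, and 10, 3, 7 and 6 without control libraries 1, 2, 3 and 4. Without both Mitol Δ/Δ library 3 and control library 4, only Bcl3 and Ebi3 among them passed. Over all genes the count, 1386 with all libraries, moved in the same fits. It was 565, 492, 520 and 2501 without Mitol Δ/Δ libraries 1, 2, 3 and 4. Without control libraries 1, 2, 3 and 4 it was 1319, 359, 811 and 510.

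**Figure D4:**
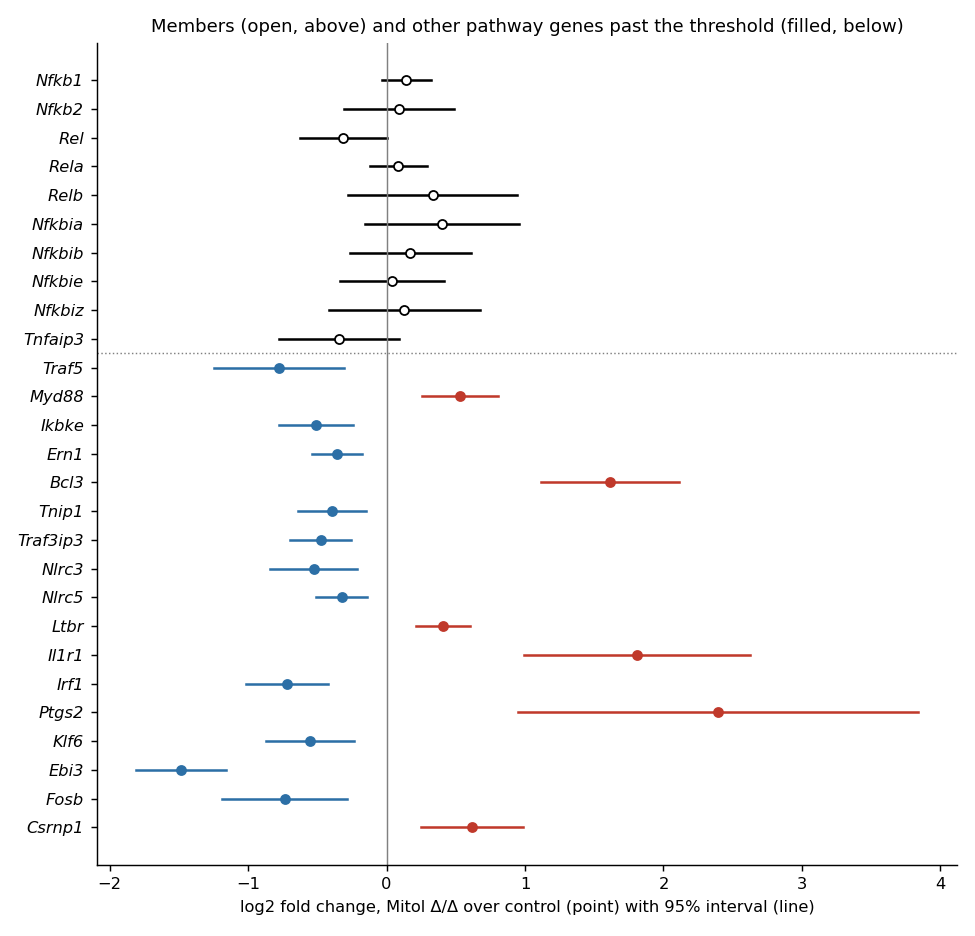
Log2 fold change, Mitol Δ/Δ over control (horizontal axis), with 95% intervals for the 10 members (open circles) and for the pathway and immediate early genes past the threshold (filled, red higher, blue lower). The interval of Rel ends at 0 within rounding and those of the other members span it, while Bcl3 at 1.61 and Ebi3 at -1.48 lie far from it.

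Among 26 other negative regulators, 1 rose and 4 fell, 19.2% beside 8.43% of all genes. The gene that rose was Bcl3, which encodes a nuclear protein of the IκB family that binds p50 and p52 dimers and can repress or activate their targets. Bcl3 had 348, 331, 546 and 543 normalized counts with the deletion (Mitol Δ/Δ libraries 1 to 4) and 193, 137, 149 and 96.1 in control libraries 1 to 4. All Mitol Δ/Δ libraries were above all control libraries, with a 3.06-fold difference (log2 fold change 1.61, SE 0.23, edgeR adjusted p = 0.00428). It kept its call in each of the 8 fits without 1 library and without the 2 libraries named above. Per count of Nfkb1, the source of its p50 partner, Bcl3 stood at 0.133 ± 0.0333 with the deletion and 0.0480 ± 0.0112 in controls (SD, n = 4).

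The regulators that fell were Traf3ip3, Nlrc3, Nlrc5 and Tnip1, with log2 fold changes of -0.48, -0.53, -0.33 and -0.39 (edgeR adjusted p = 0.0187, 0.0449, 0.0367 and 0.0494). Tnip1 encodes ABIN-1, a partner of A20, and shares 25.3% of its exon bases with Gpx3 on the other strand, which had a log2 fold change of -0.64 (edgeR adjusted p = 0.364). The calls were lost in 5 of 8 fits without 1 library for Traf3ip3 (adjusted p up to 0.0640, without control library 2) and in 7 of 8 for Nlrc3, Nlrc5 and Tnip1 (adjusted p up to 0.123, 0.103 and 0.134, without control library 4, Mitol Δ/Δ library 1 and Mitol Δ/Δ library 2). Some were also lost with all libraries. Tnip1 was at adjusted p = 0.0539 with RLE normalization, 0.0677 without the filter and 0.0556 with the replicate block. Nlrc3 was at 0.0628 without the filter and Nlrc5 at 0.0504 with the replicate block.

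Of 38 genes listed under the IKK complex, adaptors and kinases, 1 rose and 3 fell, 10.5% beside 8.43% of all genes. The genes of the core complex, Chuk, Ikbkb and Ikbkg, were not among them (edgeR adjusted p = 0.604, 0.992 and 0.978). Myd88, the adaptor of Toll-like and interleukin-1 receptors, had 380, 485, 473 and 496 normalized counts with the deletion (Mitol Δ/Δ libraries 1 to 4) and 297, 286, 317 and 351 in control libraries 1 to 4, with no overlap (log2 fold change 0.53, SE 0.13, edgeR adjusted p = 0.0270). The list also holds Ern1, which encodes the ER stress sensor IRE1α and no part of the IKK complex. Ern1 had 2143 ± 186 normalized counts with the deletion and 2710 ± 59.7 in controls (log2 fold change -0.36, edgeR adjusted p = 0.0264). Ikbke, an IKK-related kinase gene, and Traf5, an adaptor gene of tumor necrosis factor receptors, had log2 fold changes of -0.51 and -0.78 (edgeR adjusted p = 0.0281 and 0.0462). Without 1 library the calls were lost in 4 of 8 fits for Myd88 (adjusted p up to 0.0819, without control library 2), in 6 for Ern1 and Ikbke (up to 0.0786 and 0.0830, without Mitol Δ/Δ library 2 and control library 2) and in all 8 for Traf5 (up to 0.125, without control library 4). With all libraries Traf5 was at adjusted p = 0.0633 without the filter, 0.0561 under limma-voom and 0.0536 with the replicate block.

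Of 22 receptors and ligands tested, 2 (9.09%, beside 8.43% of all genes) passed the threshold, and both rose. Il1r1, the interleukin-1 receptor gene, had 244, 220, 317 and 703 normalized counts with the deletion (Mitol Δ/Δ libraries 1 to 4) and 69.9, 113, 73.5 and 158 in control libraries 1 to 4. The groups did not overlap, and the difference was 3.50-fold (log2 fold change 1.81, SE 0.37, edgeR adjusted p = 0.0177, and 0.0538 without control library 2). Ltbr, the lymphotoxin β receptor gene that feeds the non-canonical branch, had 641 ± 14.6 normalized counts with the deletion and 476 ± 18.3 in controls, again without overlap (log2 fold change 0.41, edgeR adjusted p = 0.0207). Its call was lost in 4 of 8 fits without 1 library, with an adjusted p up to 0.0569, without Mitol Δ/Δ library 2.

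Of 30 target genes tested, 1 rose and 3 fell, 13.3% beside 8.43% of all genes. Ebi3, a subunit gene of interleukin-27 and interleukin-35, had 180, 188, 146 and 247 normalized counts with the deletion (Mitol Δ/Δ libraries 1 to 4) and 521, 570, 506 and 499 in control libraries 1 to 4. Every Mitol Δ/Δ library was far below every control library (0.357-fold, log2 fold change -1.48, SE 0.15, edgeR adjusted p = 0.00134), and the call was kept in all 8 fits without 1 library. Its exons share 51.1% of their bases with the antisense gene Gm16712, which also fell (log2 fold change -1.95, edgeR adjusted p = 0.00346), and reads of the pair cannot be told apart. Irf1, an interferon regulatory factor gene, had 748 ± 108 normalized counts with the deletion and 1214 ± 211 in controls, without overlap (log2 fold change -0.72, SE 0.14, edgeR adjusted p = 0.0136) and was called in all 8 fits without 1 library, but not without Mitol Δ/Δ library 3 and control library 4 together (edgeR adjusted p = 0.0964). The exons of Irf1 share 31.4% of their bases with Gm17334 on the other strand (log2 fold change -1.06, edgeR adjusted p = 0.0170). They share 13.2% with Gm12216, also on the other strand (log2 fold change -1.07, edgeR adjusted p = 0.00618). Reads in these overlaps cannot be told apart.

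In Ptgs2 and Klf6, the other target genes past the threshold, the groups overlapped. Ptgs2, which encodes cyclooxygenase-2, had 55.6, 138, 720 and 518 normalized counts with the deletion (Mitol Δ/Δ libraries 1 to 4) and 56.7, 129, 40.5 and 44.9 in control libraries 1 to 4. The high values were those of Mitol Δ/Δ libraries 3 and 4, as for Nfkbia, and the call (log2 fold change 2.40, SE 0.66, edgeR adjusted p = 0.0454) was lost in 6 of 8 fits without 1 library (adjusted p up to 0.126, without control library 4). It was also lost under limma-voom and with the replicate block (log2 fold change 1.85 and 1.98, adjusted p = 0.214 and 0.0968). Without Mitol Δ/Δ library 3 the log2 fold change was 1.80 (edgeR adjusted p = 0.122). Klf6, a zinc finger factor gene, had 1168 ± 130 normalized counts with the deletion and 1696 ± 367 in controls (log2 fold change -0.55, edgeR adjusted p = 0.0388, and up to 0.114 without control library 2), and was at adjusted p = 0.0515 under limma-voom. Of 21 immediate early genes tested, 2 passed (9.52%, beside 8.43% of all genes). Csrnp1 rose (log2 fold change 0.62, edgeR adjusted p = 0.0433) and Fosb fell (-0.74, adjusted p = 0.0476). Both calls were lost in 6 of 8 fits without 1 library (adjusted p up to 0.105 without Mitol Δ/Δ library 3 and 0.126 without Mitol Δ/Δ library 2). Fosb was at adjusted p = 0.0505 with RLE normalization and 0.0524 without the filter, and Csrnp1 at 0.0548 with upper-quartile normalization.

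**Figure D5:**
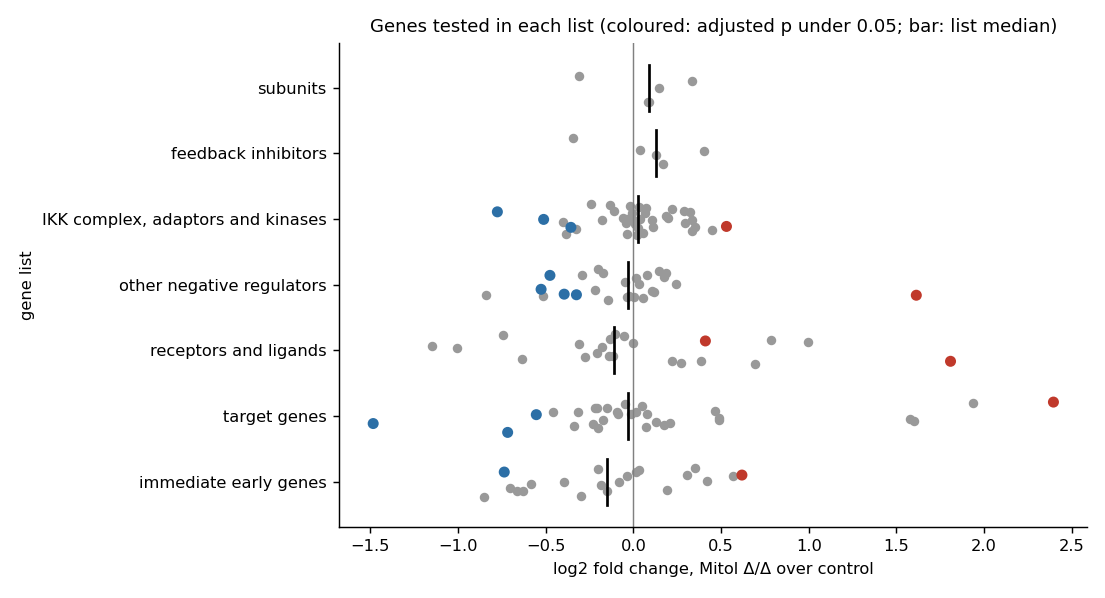
Log2 fold change, Mitol Δ/Δ over control (horizontal axis), of each tested gene in the 7 lists (rows), coloured where the adjusted p is under 0.05 (red higher, blue lower) and grey otherwise, with a bar at the list median. The subunits and feedback inhibitors hold no coloured point, and the other lists hold between 2 and 5 each, spread to both sides except for the receptors and ligands.

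The libraries held between 7214935 and 12398138 counts on named genes, and the groups overlapped in these totals (exact permutation test, 2-sided, p = 0.200). The 10 genes together made up between 821 and 1164 CPM. The targeted gene Marchf5 had 274 ± 31.8 normalized counts with the deletion and 302 ± 29.9 in controls (log2 fold change -0.15, edgeR adjusted p = 0.498), and counts per gene cannot show the deleted exons. The HSC markers Slamf1 and Procr, which encode CD150 and EPCR of the gate, were present in every library, and Kit, which encodes CD117, was present in every library but lower in Mitol Δ/Δ HSCs (log2 fold change -0.75, edgeR adjusted p = 0.00705). Among the other HSC markers Hlf and Hoxa9 were lower (log2 fold change -0.79 and -0.44, edgeR adjusted p = 0.00381 and 0.0436). Slamf1 and Ly6a had fitted differences above 0 without being called (0.56 and 0.76, adjusted p = 0.0501 and 0.0606), and Cd34 was at 0.01 (0.969). Procr, Mecom, Tek, Fgd5, Hoxb5 and Meis1 lay between -0.10 and -0.56 and were not called (adjusted p of 0.0527 or more). Cd48, which the gate excludes, was higher, at 22.2 to 63.4 against 4.49 to 21.7 normalized counts. Of the markers of other cells, the neutrophil and monocyte list (13 of 17 genes in the table) summed to 417 to 615 normalized counts in Mitol Δ/Δ and 336 to 465 in control libraries, and the dendritic cell and macrophage list (7 of 10) to 579 to 1386 and 542 to 833. Flt3 made up most of the latter sum, at 393 to 1315 in Mitol Δ/Δ and 467 to 712 in control libraries (log2 fold change 0.45, edgeR adjusted p = 0.337). The T and NK cell list (4 of 10) summed to 260 to 425 and 170 to 228, the B-lineage list (5 of 8) to 137 to 150 and 153 to 211, and the mast cell and basophil list (1 of 8) to 7.32 to 13.8 and 11.3 to 21.1. Within the neutrophil and monocyte list, S100a9 was at 0 in the 4 Mitol Δ/Δ libraries and at 2.64 to 21.3 in the controls, while Itgam, Ms4a6c and Cd68 were above 0 in every library with log2 fold changes of 1.61, 0.54 and 0.38 (edgeR adjusted p = 0.0768, 0.232 and 0.291). The genes of these lists called higher by edgeR were Nkg7, which made up most of the T and NK cell sum (log2 fold change 1.05, adjusted p = 0.0144), and Hbb-bt of the red-cell list (1.29, adjusted p = 0.0442), while Cd4 had -0.60 (adjusted p = 0.258). Their part in the values above was not tested.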

How the data were processed

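RNA-seq libraries from 4 Mitol Δ/Δ and 4 control HSC samples were grouped by their titles. The authors aligned single-end reads with STAR to mm39, merged alignments with samtools and deposited a table of raw counts per gene from subread, without normalization. The annotation and strand setting of the counting are not given in the sources used here. Each of the 23094 rows held at least 11 counts. The 1029 rows with no gene symbol (0.335% to 0.467% of a library's counts) were left out.

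Counts of 16444 genes that passed filterByExpr were tested with edgeR (version 4.0.16), TMM normalization and condition as the sole term, at a Benjamini-Hochberg adjusted p-value under 0.05. The fit was tested on simulated data. Standard errors were derived from the F statistic. Normalized counts are counts divided by DESeq2 (version 1.42.0) size factors. Single genes were also compared by 2-sided exact permutation tests. Alternatives were RLE, upper-quartile and total-count normalization, no filter, DESeq2, limma-voom (limma version 3.58.1), the replicate number as a block, each library left out, a threshold of 0.1, and permutation tests on CPM and log2 CPM (prior count of 2). Named were all 10 members, Marchf5 and, of each other list, the genes past the threshold, or the 3 with the lowest p per direction where over 6 passed. The members and lists were chosen with earlier results of these data known, so their counts are no independent evidence. Chuk, Ikbkb, Ikbkg, Cd48, Kit, Hlf, Hoxa9, Slamf1, Procr, S100a9, Itgam, Ms4a6c, Cd68, Flt3, Nkg7, Hbb-bt, Cd4 and overlapping genes were named after their values were seen. So were Ly6a, Cd34, Mecom, Tek, Fgd5, Hoxb5 and Meis1. 1 marker gene is not reported here. Gene positions and exon lengths came from GENCODE vM39. Counts come from reads without molecular identifiers. The exact Poisson interval of a raw count covers counting error only. The intervals of the fold changes come from the edgeR fit and also take in the spread between libraries.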

Additional observations from a re-analysis of the deposited data

Results flagged for a closer look

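Among 54 groups of 4 libraries checked, 2 held a library whose gap to its nearest neighbour took an unusually large share of the group's range by Dixon's criterion, where chance flags about 1 group in 20. The first was Nfkbie in Mitol Δ/Δ library 4, at 408 normalized counts, with the nearest other at 266 (a ratio of 0.831 to the range). The second was Ikbke in control library 1, at 1183 normalized counts, with the nearest other at 1416 (a ratio of 0.851).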

How the results depend on the processing

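No member was called in either direction under any alternative: RLE, upper-quartile and total-count normalization, no filter, DESeq2, limma-voom, the replicate block, a threshold of 0.1, each library left out and 2 libraries left out. The main fit called 8.43% of all genes. The alternatives called from 62 genes without 2 libraries to 2585 at a threshold of 0.1. With so few genes called, a count of 0 among 10 says little about the members. 3 members changed sign without being called. Nfkb2 ranged from -0.036 to 0.22 on the log2 scale over fits without 1 library and was -0.072 without 2 libraries. Nfkbie ranged from -0.15 to 0.14 over fits without 1 library and was -0.020 under upper-quartile normalization, -0.019 with library totals and -0.0089 under limma-voom. Nfkbiz ranged from -0.12 to 0.29 and was -0.15 without 2 libraries. The cause was not tested.

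Genes past the threshold numbered 2315 by DESeq2, 2585 at a threshold of 0.1, 62 without 2 libraries and from 359 to 2501 without 1 library, against 1386. Other pathway genes past it numbered 25 by DESeq2, 25 at a threshold of 0.1, 2 without 2 libraries (Bcl3 and Ebi3) and from 3 to 22 without 1 library, against 15. The share of called genes that were higher was 55.6%, and 41.3% and 42.1% under upper-quartile normalization and library totals. With the replicate block, 1652 genes, 16 other pathway genes and 0 members were called. Deviations of same-numbered libraries correlated at 0.0803, -0.0695, 0.0526 and 0.0674. Of the Mitol Δ/Δ libraries 2 of 4 correlated best with their own number, and so did 2 of the 4 control libraries. The labels give no pairing, and these values do not settle whether same-numbered libraries were paired.

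Depth limits Relb and Nfkbib most, and the 4 libraries per group, each of 100 cells, limit the precision of every comparison.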
